A study of Mus musculus with 23 samples.

Results

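The expression of 8 genes was followed on mouse arrays before and after induction of the leukaemic fusion protein RUNX1-ETO: Lyve1, the scavenger and mannose receptor genes Stab1, Stab2, Mrc1, Cd36 and Msr1, and the lymphatic endothelial genes Prox1 and Pdpn. The genes were chosen by name with earlier results of these data known, so that their counts beside all genes are descriptive. Each was represented by the probe selected on its mean intensity over 23 arrays, the highest of the gene's probes. These 8 genes are among 20145 named on the array, and 7 of them were among the 15202 that passed an expression filter, which asked for a log2 intensity of 6.5 or more on 1 or more arrays. Msr1 was the gene that did not pass, and Cd36 passed only through induced arrays (its highest uninduced reading was 6.19).

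LYVE1 is a receptor for hyaluronan, a large sugar polymer of the extracellular matrix, and is used as a marker of lymphatic endothelium, of sinusoidal endothelium and of some tissue macrophages. Stabilin-1 and stabilin-2 (Stab1, Stab2), the mannose receptor CD206 (Mrc1), CD36 and the class A scavenger receptor (Msr1) take up modified lipoproteins, glycans, matrix fragments and cell debris in sinusoidal endothelial cells and macrophages. In the embryo, blood cells arise from haemogenic endothelium, which gives up its endothelial programme as it becomes blood, and RUNX1 is needed for that step.

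The cells came from 1 mouse ES cell line, labelled as C57BL/6, in which a human RUNX1-ETO gene is switched on by doxycycline (Dox) from a tetracycline-responsive promoter while the RUNX1 gene of the cell is wild type, so that the uninduced cells carry the transgene as well. HE (haemogenic endothelium, KIT+Tie2+CD41-), HE2 (KIT+Tie2+CD41+) and progenitor cells (KIT+Tie2-CD41+) were sorted from blast cultures on day 2, after Dox at 0.1 μg per ml from day 1 or without it. Myeloid progenitors were grown from KIT+CD41+ cells in medium with cytokines, with or without Dox for 12 h, so that their induction differed from that of the other cells in time and length. There were 3 arrays each of uninduced and induced HE, HE2 and myeloid progenitors and 2 each of uninduced and induced progenitors, and a further uninduced progenitor array, titled as a technical replicate, was normalized with the rest but left out of the means and tests. The source name of that array calls it replicate 3 instead. Induced myeloid progenitor array 3 is a biological replicate by its title but a technical one by its source name, and was counted as a replicate. Without it, the log2 changes of Lyve1 (5.15) and Mrc1 (4.17) with Dox in myeloid progenitors kept their calls, as did those of Stab1 and Cd36.

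Between 48.8 and 78.4% of the spots of an array were well above background, no spot was saturated, and arrays of a group correlated at 0.966 to 0.993 across genes. The arrays lay on 3 slides: HE and HE2 arrays on slides 1 and 2, and all myeloid progenitor arrays on slide 3, together with induced progenitor array 2, so that the change from progenitors to myeloid progenitors and the slide can be told apart only through that array and the further uninduced progenitor array, also on slide 3. Runx1t1, the mouse gene for ETO, was checked first. At each stage its probe read higher on all induced arrays than on any uninduced one, and its log2 change was 2.08 for HE2, 3.96 for progenitors and 2.06 for myeloid progenitors, whereas the change of 1.24 for HE did not pass the threshold. Whether this probe reads the human transgene was not tested.

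A change was called when it reached 2-fold with an unadjusted P no greater than 0.001, in a fit of all 22 arrays, and adjusted P values were taken over all 15202 genes. Mrc1 rose with Dox at all 4 stages, Stab1 and Cd36 at 3 stages each, Lyve1 at 2 and Prox1 at 1, and Stab2 and Pdpn were called at none. The calls of Cd36 are not independent of the expression filter, which it passed only through induced arrays. Of the 7 members tested, Mrc1 and Cd36 were called upregulated in HE, where 4.7% of all genes were, and Mrc1, Stab1, Cd36 and Lyve1 in HE2, where 5.17% were. In progenitors Stab1, Mrc1 and Prox1 were called upregulated beside 3.03% of all genes, and in myeloid progenitors Lyve1, Mrc1, Stab1 and Cd36 beside 5.13%. No member was called downregulated, which is near the shares of all genes that were, namely 2.39% (HE), 2.05% (HE2), 0.704% (progenitors) and 1.18% (myeloid progenitors).

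**Figure D1:**
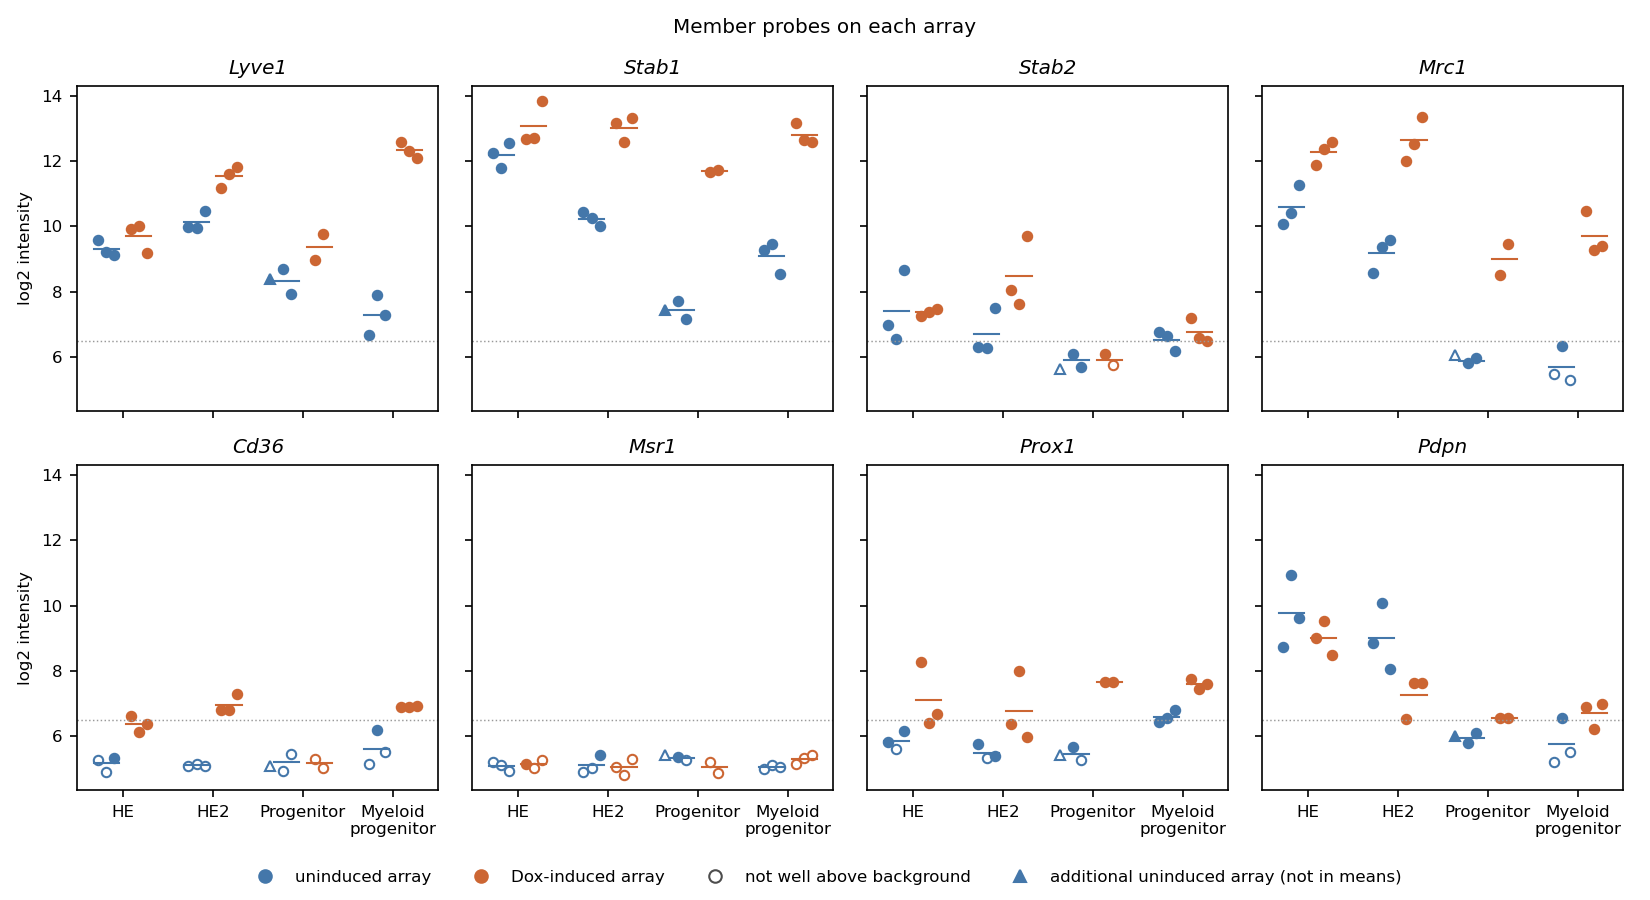
Log2 intensity (y axis) of the probe of each member on every array, by stage (x axis), for uninduced (blue) and induced (orange) arrays, with a line at each group mean. Open symbols are spots not well above background, triangles the additional uninduced progenitor array, and the dotted line the expression filter at 6.5. The induced arrays of Mrc1 lie above the uninduced ones at all 4 stages, whereas Msr1 stays between 4.80 and 5.44 throughout.

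Over the 7 members, the median log2 change with Dox was 0.88 for HE, 1.77 for HE2, 1.05 for progenitors and 1.29 for myeloid progenitors, compared with -0.01, -0.03, -0.04 and -0.02 over all genes tested. All induced arrays lay above all uninduced arrays for 4 of 7 members at the HE stage, 6 at the HE2 stage and 5 at each later stage. Over all genes with a value on every array of the stage, 14.2% (HE), 17% (HE2), 22.6% (progenitors) and 23.9% (myeloid progenitors) did so. The 7 members include Cd36, which passed the expression filter only through induced arrays, so that these medians and counts are not independent of the filter. Cd36 is among the members counted as apart in HE, HE2 and myeloid progenitors, and its own change is the median in myeloid progenitors. These are bulk samples, in which fewer or more cells of a type and less or more RNA per cell cannot be told apart.

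Mrc1, which encodes the mannose receptor of macrophages and sinusoidal endothelium, was called upregulated with Dox at every stage. In HE, its log2 intensity was 10.09, 10.42 and 11.29 without and 11.90, 12.38 and 12.60 with Dox. In HE2, it was 8.58, 9.37 and 9.60 without and 12.01, 12.53 and 13.36 with Dox. The uninduced HE2 arrays thus all lay below the uninduced HE arrays, while the induced HE and HE2 arrays overlapped. In progenitors, uninduced arrays at 5.81 and 5.95 faced induced arrays at 8.52 and 9.47. In myeloid progenitors, the probe gave 5.48, 6.34 and 5.30 without Dox, with only the second of these arrays well above background, and 10.48, 9.27 and 9.41 with Dox.

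In HE, Mrc1 rose by a log2 value of 1.69 with a standard error (SE) of 0.424 and an adjusted P of 0.00953. The rise was 3.46 in HE2 (SE 0.424, adjusted P = 2.34e-05). It was 3.11 in progenitors (SE 0.519, adjusted P = 0.00106) and 4.01 in myeloid progenitors (SE 0.424, adjusted P = 3.53e-06). The fitted folds were 3.24, 11, 8.65 and 16.2, the last against a group with 1 of 3 arrays well above background, where the change was 3.33 at an offset of 50 and 5.0 with 75th percentile scaling. The changes in HE2, progenitors and myeloid progenitors kept their call when any 1 array was left out. In HE the call was lost without uninduced HE array 1 (1.44, adjusted P = 0.0525) or 2 (1.61), without induced HE array 2 (1.65) or 3 (1.54), and when array 2 of either HE2 group, array 1 of the uninduced or 3 of the induced myeloid progenitors, or either uninduced progenitor array was left out, where the value itself stayed at 1.69 and the adjusted P was 0.0120 to 0.0128.

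Stab1, the gene for stabilin-1, an endocytic receptor that also binds the matrix protein SPARC, was high in HE already without Dox and rose with Dox at the 3 later stages. Its 3 uninduced HE arrays read 12.26, 11.80 and 12.55 and the induced ones 12.68, 12.72 and 13.85, which did not overlap but differed by a log2 change of only 0.88 (adjusted P = 0.0712). In HE2, uninduced arrays at 10.45, 10.25 and 10.02 faced induced arrays at 13.16, 12.58 and 13.32, and Stab1 rose by a log2 value of 2.78 (SE 0.317, adjusted P = 1.17e-05). The induced HE2 and induced HE arrays overlapped, whereas without Dox HE2 lay below HE on every array. In progenitors, 7.71 and 7.16 became 11.66 and 11.73, a log2 change of 4.26 (SE 0.389, adjusted P = 3.28e-06), or 19.1-fold. In myeloid progenitors, 9.27, 9.48 and 8.56 became 13.16, 12.65 and 12.60, a log2 change of 3.70 (SE 0.317, adjusted P = 3.57e-07), or 13.0-fold. The additional array of uninduced progenitors read 7.43, between the other arrays of its group. These 3 calls held in every alternative run.

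Mrc1 and Stab1 had the highest correlation of any pair of members, 0.89 over the 22 arrays, which share stages, induction and slides. Their promoters are shown because the genes rose together, and that of Stab2 because it holds the core of a RUNX site. RefSeq sequences of 300 bases around the start, on build GRCm38.p6, matched 6 of the 8 members, with 2 starts for Prox1. The 250 bases before the start of each gene follow, 5′ to 3′ on the strand of the gene, with capitals marking the letters of the RUNX core TGTGGT or the ETS core AGGAAG read on either strand (AGGAAG appears as CTTCCT where it lies on the other strand). The positions are chr14:31168642-31168891 on the minus strand for Stab1, chr2:14229164-14229413 on the plus strand for Mrc1 and chr10:87007943-87008192 on the minus strand for Stab2.
Stab1: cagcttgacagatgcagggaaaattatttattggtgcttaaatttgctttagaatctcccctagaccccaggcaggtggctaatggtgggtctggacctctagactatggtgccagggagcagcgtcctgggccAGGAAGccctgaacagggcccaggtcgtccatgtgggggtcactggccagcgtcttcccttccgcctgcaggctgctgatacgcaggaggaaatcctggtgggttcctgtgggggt
Mrc1: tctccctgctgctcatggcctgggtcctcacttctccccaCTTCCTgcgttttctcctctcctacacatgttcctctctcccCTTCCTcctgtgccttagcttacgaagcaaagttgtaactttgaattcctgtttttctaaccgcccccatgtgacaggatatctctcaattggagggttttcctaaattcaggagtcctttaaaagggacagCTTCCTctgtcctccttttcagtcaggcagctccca
Stab2: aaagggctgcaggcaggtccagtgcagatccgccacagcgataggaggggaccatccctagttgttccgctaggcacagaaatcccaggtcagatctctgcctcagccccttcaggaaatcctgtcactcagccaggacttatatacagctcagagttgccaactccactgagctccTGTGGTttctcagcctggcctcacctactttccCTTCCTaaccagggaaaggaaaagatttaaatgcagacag
The ETS core had 1 match in the Stab1 window, at bases -116 to -111 from the start, 3 in the Mrc1 window and 1 in the Stab2 window. The RUNX core had 1 match, in the Stab2 window, at bases -73 to -68 from the start, and none in those of Stab1, Mrc1, Cd36, Pdpn or Prox1. Among all 32851 windows of this length, 16.8% held a RUNX core and 35.4% an ETS core. The 2 motifs share no letters where they matched here, and a match is a description of the sequence and not a binding site.

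Lyve1 changed little with Dox in HE and most in myeloid progenitors. In HE the arrays read 9.60, 9.21 and 9.12 without and 9.91, 10.01 and 9.20 with Dox. These overlapped, with a log2 change of 0.40 and a 95% confidence interval of -0.27 to 1.06. In HE2, 9.99, 9.96 and 10.48 became 11.19, 11.60 and 11.83, a log2 change of 1.40 (SE 0.316, adjusted P = 0.00468), or 2.63-fold. In progenitors, 8.69 and 7.94 faced 8.97 and 9.77, a log2 change of 1.05 that was not called (adjusted P = 0.131). In myeloid progenitors, arrays at 6.68, 7.90 and 7.29 without Dox gave way to 12.59, 12.30 and 12.11 with Dox. The log2 change was 5.04 (SE 0.316, adjusted P = 1.09e-08), or 33.0-fold.

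Across the 8 groups, Lyve1 was thus lowest in uninduced and highest in induced myeloid progenitors. In ascending order of the mean, uninduced myeloid progenitors (7.29) were followed by uninduced progenitors (8.31), uninduced HE (9.31), induced progenitors (9.37), induced HE (9.71), uninduced HE2 (10.14), induced HE2 (11.54) and induced myeloid progenitors (12.33). Uninduced HE, induced progenitors and induced HE overlapped, as did induced HE and uninduced HE2, and the other neighbours in this order did not. The call in HE2 was lost without uninduced HE2 array 1 (1.32) or 2 (1.30), or without induced HE2 array 2 (1.37) or 3 (1.25), with adjusted P values of 0.0159 to 0.0287.

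Cd36, a fatty acid transporter and scavenger receptor of capillary endothelium, macrophages and platelets, was dim, and its spot was well above background on 11 of 23 arrays. In HE it read 5.26, 4.90 and 5.34 without Dox, with the first and second of these arrays not well above background, and 6.60, 6.12 and 6.37 with Dox, a log2 change of 1.20 (SE 0.232, adjusted P = 0.0014). In HE2, 5.08, 5.15 and 5.10, none well above background, faced 6.81, 6.79 and 7.30. The fitted log2 change there was 1.86, with a 95% confidence interval of 1.37 to 2.35 (adjusted P = 2.74e-05). In myeloid progenitors, 5.14, 6.19 and 5.50 faced 6.89, 6.89 and 6.93, a log2 change of 1.29 with an SE of 0.232 (adjusted P = 0.000774). The changes in HE and myeloid progenitors fell below 2-fold with a normexp offset of 50 (0.74 and 0.88) or in the deposited log2 values (0.76 and 0.90). The change in HE2 was 1.22 and 1.25 there, so that its size depends on the processing. With 75th percentile scaling the changes in HE, HE2 and myeloid progenitors were 3.04, 4.36 and 2.09. In progenitors, Cd36 had no array well above background in either group, with readings of 4.93 and 5.46 without and 5.29 and 5.03 with Dox. The log2 change there was -0.03, with a 95% confidence interval of -0.63 to 0.57, and its sign turned with the scaling, so that no direction is given.

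Stab2, the gene for stabilin-2, the main hyaluronan clearance receptor of liver sinusoids, was not called with Dox at any stage. In HE2, 6.30, 6.29 and 7.51 without Dox faced 8.06, 7.63 and 9.71 with Dox, without overlap. The log2 change of 1.77 had an adjusted P of 0.0215 and missed the unadjusted threshold, but passed it without uninduced HE array 3 (1.77), uninduced HE2 array 3 (2.17) or induced HE2 array 2 (2.18). Without induced HE2 array 3 it was 1.15 (adjusted P = 0.138). In HE the highest array was uninduced, with 6.99, 6.56 and 8.67 without and 7.25, 7.38 and 7.48 with Dox. In progenitors it read 6.10 and 5.69 without and 6.09 and 5.75 with Dox, and in myeloid progenitors 6.76, 6.63 and 6.18 without and 7.21, 6.59 and 6.48 with Dox. The log2 changes in HE, progenitors and myeloid progenitors were -0.04, 0.02 and 0.24. The groups overlapped at those 3 stages, and the sign in HE and in progenitors turned with the scaling.

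Msr1, the class A scavenger receptor gene of macrophages, stayed near background. Its brighter probe read 4.80 to 5.44 over the 23 arrays and was well above background on 3 of them. The other probe read 4.40 to 5.72 and was well above background on 0. No change of Msr1 could be measured at this signal, and it was not tested.

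**Figure D2:**
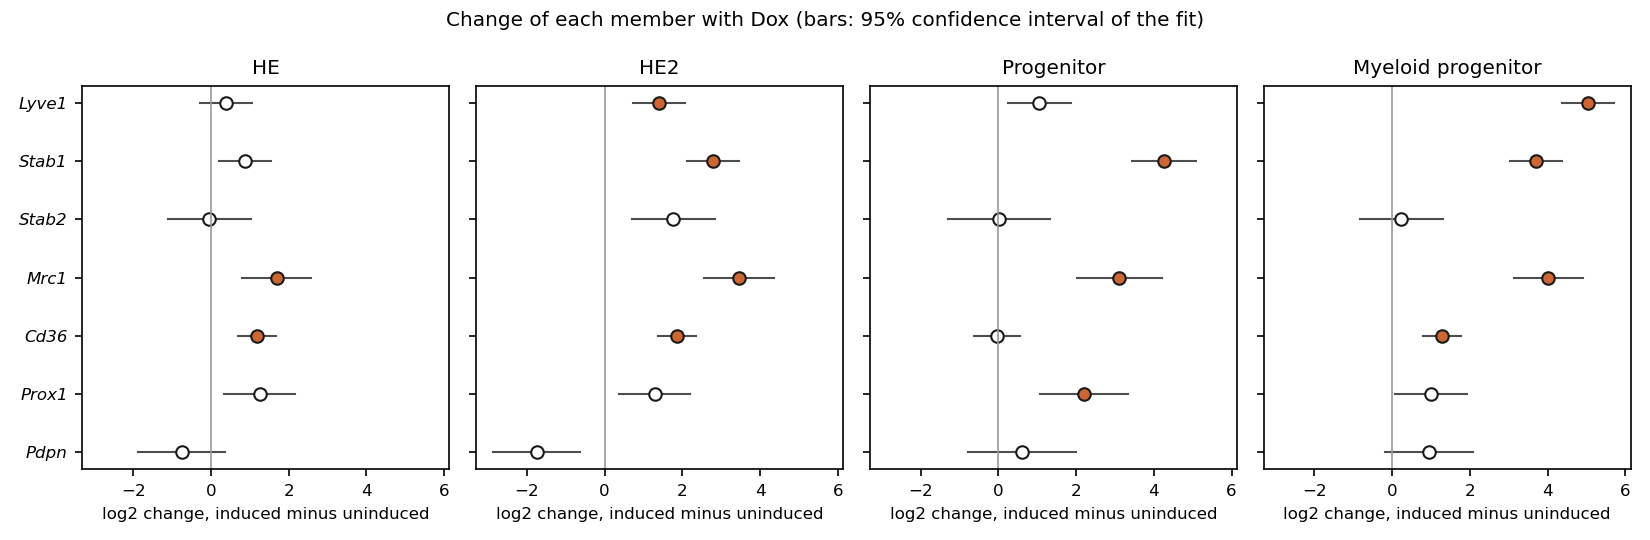
Log2 change with Dox (x axis, induced minus uninduced) of the 7 members tested at each stage, with 95% confidence intervals of the fit. Filled points passed the threshold, and open points did not. Stab1 and Mrc1 lie furthest to the right in HE2 and progenitors, and Lyve1 with 5.04 in myeloid progenitors.

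Prox1 and Pdpn, both used to tell lymphatic from blood endothelium, did not move together. Prox1, a homeobox transcription factor that sets lymphatic identity, lay higher on every induced than on every uninduced array at all 4 stages. Its spot was well above background on 19 of 23 arrays, all induced ones among them. In progenitors, 5.68 and 5.25, the second not well above background, faced 7.67 and 7.66. The log2 change there was called, at 2.20 (SE 0.534, adjusted P = 0.019), and was 1.60 to 3.32 over the alternatives. This call was kept in 27 of 36 alternative runs. Among the runs without it were those that left out any 1 of the 4 progenitor arrays (1.99 to 2.41) and that with the slide as a block (2.09, adjusted P = 0.176). In HE, 5.81, 5.60 and 6.15 faced 8.27, 6.39 and 6.67, in HE2 5.76, 5.32 and 5.41 faced 6.37, 7.98 and 5.98, and in myeloid progenitors 6.43, 6.56 and 6.79 faced 7.76, 7.43 and 7.59. The log2 changes of 1.25, 1.28 and 1.00 were not called (adjusted P = 0.0606, 0.0508 and 0.154). In HE and HE2, 1 induced array each stood well above the other induced arrays, and with scaling to the 75th percentile the change in HE2 was 2.56 and passed the threshold.

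Pdpn encodes podoplanin, a membrane glycoprotein of lymphatic endothelium and of several epithelial and mesothelial cells, and was bright in HE. There it read 8.72, 10.95 and 9.63 without and 9.0, 9.54 and 8.49 with Dox, which overlapped. In HE2, 8.87, 10.09 and 8.05 without Dox all lay above 6.51, 7.62 and 7.62 with Dox. The log2 change of -1.75 in HE2 had an adjusted P of 0.0305 and was not called. It was called without uninduced HE2 array 3 (-2.23) or under a 0.05 limit on the adjusted P, and was -1.11 for the mean of both Pdpn probes. Of the 7 members, Pdpn alone had all induced arrays below all uninduced ones at a stage, HE2, by this probe. There 15.3% of all genes with a value on every array did so, a share near 1 of 7. The log2 changes of Pdpn in progenitors and myeloid progenitors were 0.61 and 0.94 (adjusted P = 0.655 and 0.299). In progenitors, 5.78 and 6.11 faced 6.56 and 6.55 without overlap, and in myeloid progenitors 5.21, 6.54 and 5.50 overlapped with 6.89, 6.22 and 6.98. The other Pdpn probe was dimmer, with 4.83 to 7.22 over the arrays, and in HE2 its readings of 6.06, 6.02 and 5.40 without and 5.35, 5.31 and 5.45 with Dox overlapped.

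Each Dox change was also read within slides, and fitted with a slide block. For the 9 changes called in HE, HE2 and progenitors, the induced mean lay above the uninduced mean in all 18 comparisons within a slide, by 0.90 to 4.30. There the additional progenitor array served as the uninduced array of slide 3. The 9 changes had been selected as rises on nearly the same arrays, so that their direction within a slide was largely set and is no separate support. With the slide as a block, 8 of these 9 passed the threshold, and Prox1 in progenitors did not. The 4 changes in myeloid progenitors lie within slide 3.

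Without Dox, Stab1 fell at both steps from HE to progenitors and Mrc1, Pdpn and Lyve1 at the second step, whereas Stab2 and Cd36 were called at neither. From HE to HE2, Stab1 was called downregulated (log2 change -1.96, SE 0.317, adjusted P = 0.00056) where 2.67% of all genes were, and Mrc1 changed by -1.42 without being called (adjusted P = 0.0383), but was called when slide was a block (-1.42, adjusted P = 0.0124). Lyve1 changed by 0.83 (adjusted P = 0.11). From HE2 to progenitors, Mrc1 (-3.30), Pdpn (-3.06), Stab1 (-2.81) and Lyve1 (-1.83) were called downregulated, 4 of 7 members beside 3.62% of all genes. The adjusted P values were 0.000122, 0.0024, 3.65e-05 and 0.00214. The calls of Pdpn and Lyve1 were lost without uninduced progenitor array 1 (-2.89) and array 2 (-1.45), respectively.

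With Dox, the same step from HE to HE2 gave a log2 change of -0.06 for Stab1 and a called rise of 1.83 for Lyve1 (SE 0.316, adjusted P = 0.00147), where 1.62% of all genes rose. From HE2 to progenitors with Dox, Mrc1 (-3.64), Stab2 (-2.55), Lyve1 (-2.17) and Cd36 (-1.80) were called downregulated, beside 5.34% of all genes. Cd36 was not well above background on the induced progenitor arrays, so that the size of its fall depends on the offset, with a log2 change of -1.19 at an offset of 50. The Stab2 call was lost without induced HE2 array 3 (-1.93) or induced progenitor array 1 (-2.72) or 2 (-2.38), and when slide (-1.87, adjusted P = 0.116) or scan date (-2.38) was a block. The change of Stab1, -1.33, was not called (adjusted P = 0.0162), but was so without induced HE array 3 (-1.33) or induced HE2 array 2 (-1.55). The comparisons with and without Dox of neighbouring stages share the arrays of the stage between them.

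**Figure D3:**
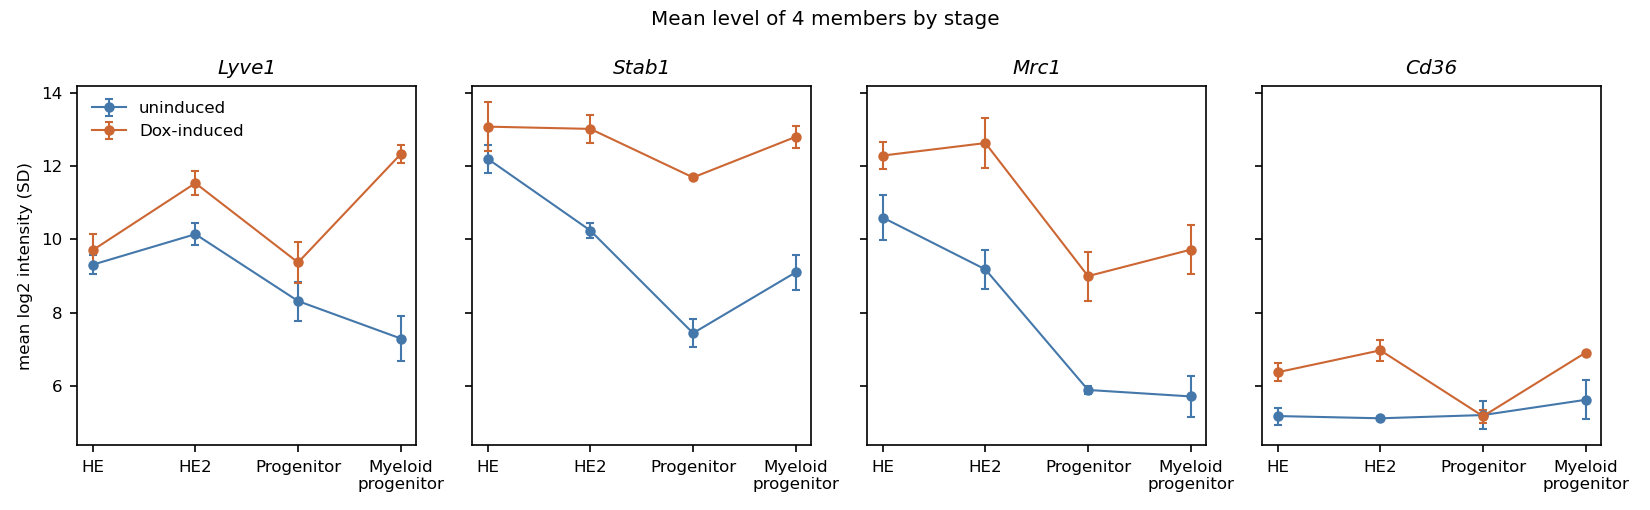
Mean log2 intensity (y axis; bars are the SD over 3 arrays, or 2 for progenitors) of Lyve1, Stab1, Mrc1 and Cd36 at each stage (x axis), without (blue) and with (orange) Dox. Without Dox, Stab1 steps down from 12.20 in HE to 10.24 in HE2 and 7.44 in progenitors, and with Dox it reads 13.08, 13.02 and 11.69.

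Between progenitors and myeloid progenitors without Dox, Stab1 was called upregulated (1.66, SE 0.355, adjusted P = 0.00166), where 7% of all genes were. This call was lost without uninduced progenitor array 2 (1.39) or uninduced myeloid progenitor array 2 (1.48), and with the slide (1.61, adjusted P = 0.260) or the scan date (1.59, adjusted P = 0.229) as a block. With Dox, Lyve1 (2.96, SE 0.354, adjusted P = 1.29e-05) and Cd36 (1.74, adjusted P = 0.000134) were called upregulated beside 4.86% of all genes. No induced progenitor array was well above background for Cd36, and its change was 1.14 to 3.31 over the alternatives.

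The response to Dox itself differed between stages for Lyve1 and Stab1. For Lyve1 the log2 change in myeloid progenitors exceeded that in HE by 4.65 (SE 0.447, adjusted P = 1.08e-05) and that in progenitors by 3.99 (SE 0.500, adjusted P = 0.00061). For Stab1 the change in myeloid progenitors exceeded that in HE by 2.82 (SE 0.449, adjusted P = 0.000676). These 3 differences passed in a fit blocked on slide, and when any 1 array was left out. Differences in this direction were called for 2.96% of all genes between HE and myeloid progenitors and for 0.835% between progenitors and myeloid progenitors.

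Between HE and HE2, the response of Stab1 rose by 1.90 (SE 0.449), where 0.625% of genes were called, but with an adjusted P of 0.0531. That call was lost when any of 8 arrays was left out, namely uninduced HE array 1 or 3, induced HE array 1 or 2, uninduced HE2 array 2 or 3 and induced HE2 array 1 or 3 (1.70 to 1.90), and when slide was a block (1.90, adjusted P = 0.0693). Between HE2 and progenitors, the fitted difference in the response of Cd36 was -1.89 (SE 0.367, adjusted P = 0.0483), where 0.408% of genes were called. No array was well above background in 3 of the 4 groups it rests on, so that its size was not measured, and the call was lost without uninduced progenitor array 2 (-1.63) or when slide was a block (-1.67). For Mrc1, the differences between stages were 1.76 from HE to HE2 and 2.32 from HE to myeloid progenitors and were not called (adjusted P = 0.253 and 0.0225), although the latter passed when any of 6 arrays was left out, namely uninduced HE array 1, array 1 of either HE2 group, induced HE2 array 3 or array 2 of either myeloid progenitor group (2.32 to 2.64), and with the slide as a block (2.55).

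Other genes of these systems were then read. With Dox, 3.03 to 5.17% of all genes were called upregulated and 0.704 to 2.39% downregulated, depending on the stage. Of 21 further scavenger and mannose receptor genes, 19 were on the array and 14 were tested. In HE, Marco, a class A scavenger receptor of macrophages, rose by a log2 value of 1.33 (adjusted P = 0.00569) and Scarf2 changed by -1.66. Colec12, a scavenger receptor of vascular endothelium, rose in HE2 (1.94) and in progenitors (1.43), whereas Olr1, the receptor for oxidised low-density lipoprotein, changed by -1.42 in HE2 and Fcgr2b by -1.0 in progenitors. These were 1 rise and 1 fall at each of the 3 early stages, and 0 of 14 were called in myeloid progenitors. The list's median changes were 0.00, -0.31, -0.20 and -0.01 in HE, HE2, progenitors and myeloid progenitors.

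Genes of hyaluronan, the ligand of LYVE1 and stabilin-2, were counted separately, with 12 of 15 tested. Has2, the main hyaluronan synthase of the embryo, rose in HE2 (1.20), progenitors (2.81) and myeloid progenitors (4.60, adjusted P = 9.03e-09), and its change in HE was not called. Hapln1, which links hyaluronan to proteoglycans, rose in HE (1.11), HE2 (1.11) and myeloid progenitors (2.34). In progenitors its mean was 13.08 without and 14.20 with Dox, a change that was not called. Cd44, the main hyaluronan receptor of blood cells, was called downregulated in HE (-1.80), HE2 (-1.02) and progenitors (-1.23). In all, 1, 2, 2 and 4 genes of the list rose in HE, HE2, progenitors and myeloid progenitors, and 2, 1, 1 and 0 fell. The others called were Tnfaip6 in HE (-1.64), the hyaluronidase gene Hyal1 in progenitors (1.80), and Cemip2 (1.55) and Hyal2 (1.02), which break hyaluronan down, in myeloid progenitors.

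Of 17 other genes on a list for lymphatic endothelium that were tested, 2, 5, 3 and 7 rose with Dox in HE, HE2, progenitors and myeloid progenitors, and 2, 0, 0 and 0 fell. Clec1b, which is 1 of the rises at each of the 3 early stages, encodes CLEC-2, the receptor for podoplanin on platelets and myeloid cells, and its probe was brightest in myeloid progenitors, at a mean of 15.2 without Dox against 10.5 in HE. It rose in HE (2.84), HE2 (3.13) and progenitors (2.11). Flt4, the receptor for VEGF-C, rose in HE (1.23), and in HE the transcription factor gene Nr2f2 (-1.78) and Vegfc (-1.08) fell. In HE2 and progenitors, Itga9, an integrin subunit of lymphatic valves, rose by 1.63 and 1.90, with Foxc1 (1.57) in HE2 and Vegfc (1.51) in progenitors. In myeloid progenitors Foxc1 (2.98), Vegfc (1.94) and Nrp2, a coreceptor for VEGF-C (1.90), had the largest changes. Foxc1 was also the gene closest to Lyve1 over the 22 arrays.

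**Figure D4:**
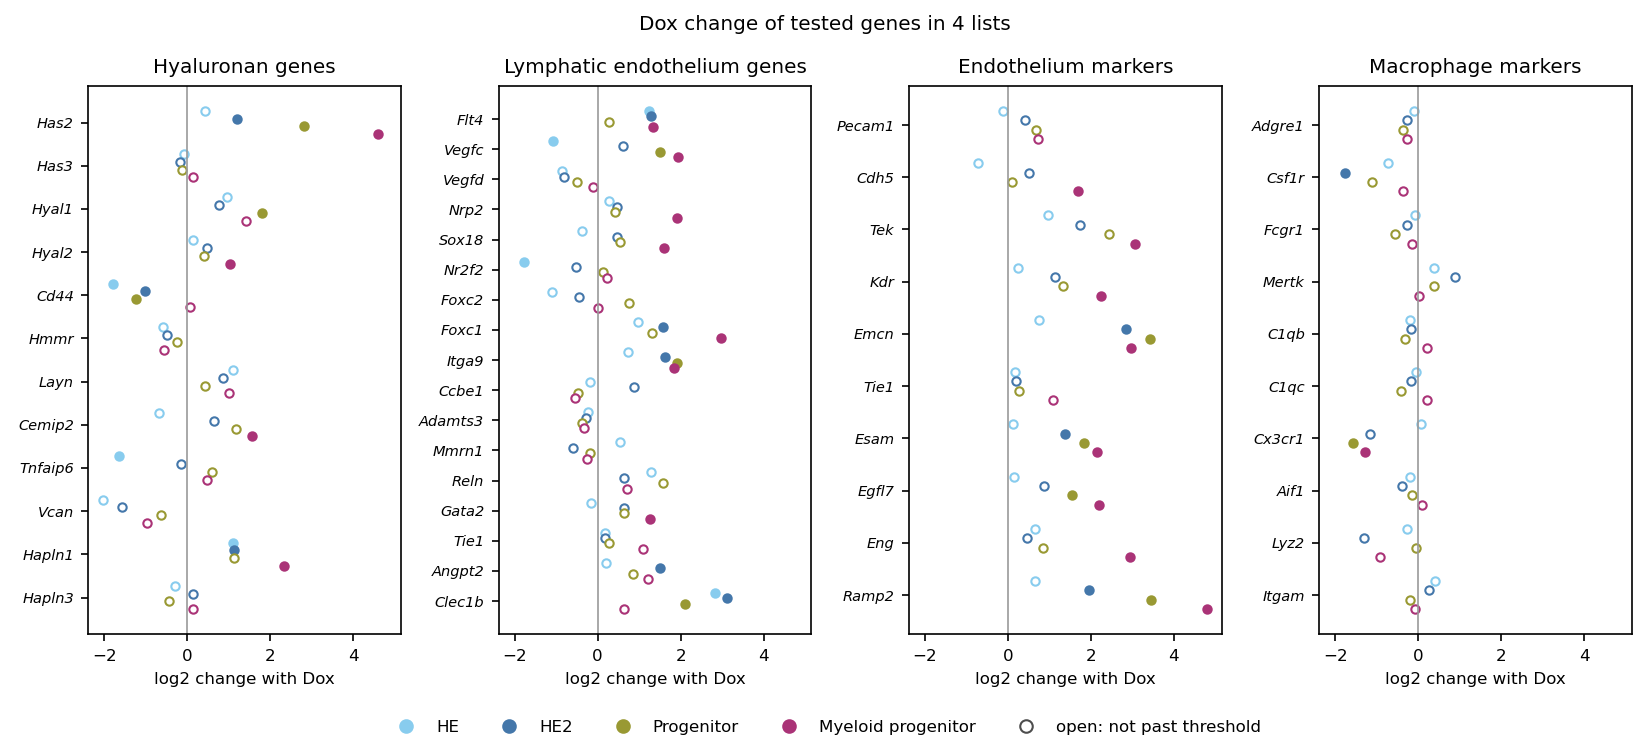
Log2 change with Dox (x axis) of each tested gene in 4 lists (y axis), coloured by stage, with filled points past the threshold and open points not. Endothelium markers lie to the right in myeloid progenitors, where 8 of 10 rose beside 5.13% of all genes. No macrophage marker rose at any stage, which is near the 3.03 to 5.17% of all genes that did.

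Markers of the cell types known for these receptors were read beside the members. Of 10 endothelium markers, 0, 3, 4 and 8 rose with Dox in HE, HE2, progenitors and myeloid progenitors, and none fell. Ramp2, a subunit of the adrenomedullin receptor, rose in HE2 (1.95), progenitors (3.44) and myeloid progenitors (4.81), and Emcn, the sialomucin endomucin, by 2.84, 3.42 and 2.97. In myeloid progenitors, the angiopoietin receptor gene Tek followed with 3.07. The summed intensity of the list was 16.05 to 16.32 (log2) on uninduced and 18.47 to 18.83 on induced myeloid progenitor arrays, and 16.41 to 16.51 against 18.03 to 18.23 in progenitors. In HE2 it was 18.02 to 18.32 against 19.26 to 19.40, and in HE 18.82 to 19.14 against 19.16 to 19.40. The part of endothelial cells in the rise of the members was not tested.

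None of 10 macrophage markers rose with Dox at any stage, which is near the 3.03 to 5.17% of all genes that did. From progenitors to myeloid progenitors without Dox, 8 of them were called upregulated, where 7% of all genes were. The falls were those of Csf1r in HE2 (-1.77) and of Cx3cr1 in progenitors (-1.57) and myeloid progenitors (-1.30). The summed intensity of the list was 14.82 to 15.51 on uninduced and 14.45 to 15.08 on induced myeloid progenitor arrays. In HE it was 12.02 to 13.83 without and 12.38 to 14.49 with Dox, with the highest value on induced HE array 3. On that array Stab1 and Mrc1 were highest among the HE arrays, whereas Lyve1 (9.20) and Pdpn (8.49) were lowest among the induced ones. In HE2 the summed intensity was 12.33 to 13.14 without against 11.93 to 12.92 with Dox, and in progenitors 13.28 to 13.85 against 12.89 to 13.23. The part of macrophages in the changes of the members was not tested.

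Of 4 tested markers of liver sinusoidal endothelium, Oit3 and Gpr182 rose with Dox in HE2 (1.87 and 3.14), progenitors (3.18 and 3.81) and myeloid progenitors (3.44 and 2.09), and Gpr182 in HE (1.94). In contrast, Clec4g, a lectin of liver and lymph node sinusoids, was called downregulated in HE (-1.42), HE2 (-1.97) and progenitors (-1.66), and Fcgr2b, also counted above, in progenitors. Spi1, the gene for the myeloid regulator PU.1 and 1 of 10 blood progenitor markers, fell in HE2 (-2.73) and progenitors (-2.23). Of the other blood progenitor markers, Itga2b, which encodes CD41 (the surface protein absent from sorted HE), fell in HE (-3.21) and Gata1 rose in HE2 (2.07).

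Lists of other cell types were read for the same arrays. Of 10 mesenchyme markers, 3 fell and 1 rose in HE, 4 fell in HE2, 0 changed in progenitors and 1 fell in myeloid progenitors, and of 4 epithelium and endoderm markers 2 fell in HE, 3 in HE2 and 0 later. The mesenchymal genes that fell in both HE and HE2 were Pdgfrb (-1.83 and -2.57), Col1a1 (-2.08 and -3.25) and Acta2 (-2.01 and -2.99), and Krt18 fell with them (-2.13 and -2.67). The summed mesenchyme level was 15.01 to 16.74 without and 13.58 to 13.78 with Dox in HE2, and 17.01 to 17.98 against 15.60 to 15.93 in HE. Pdpn was lower on all induced HE2 arrays by its brighter probe, but that change was not called and the readings of its other probe overlapped. Of 4 mesothelium and epicardium markers, 2, 0, 2 and 2 rose in HE, HE2, progenitors and myeloid progenitors, and of 4 cardiomyocyte markers 1, 0, 1 and 1. Wt1, a transcription factor gene of mesothelium, rose in progenitors (4.81) and myeloid progenitors (3.04), the keratin gene Krt19 rose there too (2.14 and 4.13), and so did the troponin gene Tnnt2 (1.84 and 2.19). The part of these cells in the changes of Pdpn and the other members was not tested.

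The genes whose pattern was most like that of each member were taken by Pearson's correlation over the 22 arrays, which share stages, induction and slides. They were Foxc1 (0.91), Rprm (0.91) and Ipo11 (0.90) for Lyve1. For Stab1 they were Atp9a (0.96), Ptprb (0.95), an endothelial phosphatase, and Fmo1 (0.94). For Mrc1 they were Gimap8 (0.99), Ripply3 (0.98) and Tmcc3 (0.97). Those of Cd36 were Fam241a (0.93), H3c15 (0.90) and Pcp4l1 (0.89), and those of Stab2 were Igfbp1 (0.82), Rnf144a (0.82) and Upb1 (0.81), the lowest of the members tested. Prox1 was closest to Plcb4 (0.89), Mir22hg (0.88) and Taok3 (0.87). Pdpn was closest to the endocytic receptor gene Lrp2, the adhesion molecule gene Vcam1 and Irs1 (each 0.96), and its highest correlation with another member was 0.59, with Mrc1.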

How the data were processed

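Cells were profiled on 1-colour Agilent mouse arrays. The authors deposited scanner files with median spot and background intensities, from Feature Extraction, and a table of log2 values that the authors had background-corrected and quantile-normalized, which served as an alternative. Here the intensities were corrected with limma (normexp, offset 16), control spots and outlier flags were left out, 23 arrays were quantile-normalized and spots of a probe averaged. Probes were named through RefSeq identifiers. The limma fit took 22 arrays in 8 groups, with Benjamini-Hochberg adjustment over all 15202 genes. It was also run on simulated data with independent noise, which held no slide or pairing effects and so cannot speak to those. Versions were R 4.3.3 and limma 3.58.1. All cells came from 1 line, so P values measure the spread between these samples.

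The members and gene lists were chosen with earlier results of these data known, and the genes named were the members, the 3 genes most correlated with each, up to 3 called genes per list and Dox comparison with arrays apart, and Runx1t1. Any further list gene was named after its values were seen, to complete a small count. Same-numbered uninduced HE and HE2 arrays deviated together (correlations 0.394, 0.795 and 0.608), and other groups did not in every pair or had 2 pairs. Alternatives were an offset of 50 or no background correction, 75th percentile scaling, early and myeloid arrays normalized apart, the deposited log2 values, other or no filters on dim probes, the mean of all probes of a gene, an adjusted P threshold of 0.05, fits of only the groups compared, replicate, slide and scan date blocks, the further array added and each array left out.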

Additional observations from a re-analysis of the deposited data

Results flagged for a closer look

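5 differences between stages in the response to Dox passed the threshold by an interaction term of the limma fit. For Lyve1, the response in myeloid progenitors exceeded that in HE by a log2 value of 4.65 and that in progenitors by 3.99. For Stab1, it exceeded that in HE by 2.82 in myeloid progenitors and by 1.90 in HE2. For Cd36, the fitted response in progenitors minus that in HE2 was -1.89, but 3 of the 4 groups had no array well above background, so that its size was not measured. Myeloid progenitors were given Dox for 12 h in culture and the other cells from day 1 to day 2, so that stage and induction cannot be told apart in the 3 differences that involve them.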

How the results depend on the processing

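Of the log2 changes recomputed, 866 of 910 under other settings and 1375 of 1430 with 1 array left out kept their direction and their side of the threshold, and of the counts of members called, 182 of 196 and 286 of 308 stayed within 1.5 times. The count with Dox in HE went from 2 to 1 with a normexp offset of 50, with 75th percentile scaling, in the deposited log2 values and when only the compared groups were fitted. The count from HE to HE2 without Dox went from 1 to 2 under a 0.05 limit on the adjusted P and with the slide as a block. That from progenitors to myeloid progenitors without Dox went from 1 to 2 at that adjusted P, and to 0 with only the groups compared and with the slide or the scan date as a block. The count of different responses between HE and HE2 went from 1 to 0 at that adjusted P, with only the groups compared and with the slide as a block, and that between HE2 and progenitors went from 1 to 0 with the slide as a block. With 1 array left out, these counts ranged from 1 to 2 with Dox in HE, 0 to 1 from progenitors to myeloid progenitors without Dox, 0 to 1 between HE and HE2, 0 to 1 between HE2 and progenitors, and 1 to 2 between progenitors and myeloid progenitors. The causes were not tested.

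Changes near 0 turned their sign. With Dox in progenitors, Cd36 read 0.33 with 75th percentile scaling, 0.10 with the scan date and 0.15 with the slide as a block and 0.0048 with the further array added, and -0.30 to 0.23 with 1 array left out. With 75th percentile scaling, Stab1 from HE to HE2 with Dox read 0.034 and Stab2 with Dox 0.11 in HE and -0.11 in progenitors, and with 1 array left out they ranged from -0.26 to 0.32, -0.46 to 0.60 and -0.19 to 0.22. The 75th percentile scaling also moved called changes by over 1.5 times on the fold scale. The log2 changes became 3.97 (Mrc1) and 3.32 (Prox1) with Dox in progenitors, and -4.11 (Mrc1) and -3.81 (Pdpn) from HE2 to progenitors without Dox. They became -3.49 (Stab2) and -3.34 (Cd36) for that step with Dox, and 3.31 (Cd36) from progenitors to myeloid progenitors with Dox. The mean of both Pdpn probes gave -1.88 from HE2 to progenitors without Dox. That scaling moved the median of all genes by -0.18 from progenitors to myeloid progenitors without Dox and -0.17 with Dox in progenitors.

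With the replicate number as a block, Prox1 in progenitors (2.20, adjusted P = 0.026) lost its call and the difference of Mrc1 between HE and myeloid progenitors (2.32, adjusted P = 0.0177) gained one, and no other call of the members changed. The numbers paired uninduced HE with uninduced HE2 arrays only. Groups of 2 or 3 arrays and dim spots limit the precision, and a member near background has no measured change.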
